A study of Mus musculus with 39 samples.

Results

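The genes described here encode the enzymes of glycolysis and the pentose phosphate pathway, the carriers that bring glucose and lactate across the cell membrane, and the enzymes that link glucose to glycogen and glycerol phosphate. They were listed by symbol, and a gene was kept where its mean over the 16 RNA libraries was at least 10 normalised counts. All 38 of 38 listed genes were found and kept, out of 24116 gene entries of which 13176 passed the same filter, and the lowest mean among the 38 was 13.8. RNA came from interscapular brown fat of male C57BL/6J mice that all carried a floxed Bcl6 gene, the gene of a transcriptional repressor. Controls carried no Cre, and the other mice were labelled as carrying UCP1Cre, which acts only in cells that use the Ucp1 promoter. Each genotype was taken at 22 °C and at 30 °C, which gave 4 groups of 4 libraries, and ages were not stated. Nothing in the labels ties the libraries to separate mice, so p-values measure only the spread between these samples, which may be technical. Libraries are called by their number within the group. Levels are normalised counts, and differences are on the log2(value + 1) scale with their SE.

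Glucose enters a cell through carriers of the Slc2a family and is trapped as glucose 6-phosphate by hexokinases. Glycolysis then turns it into pyruvate, lactate dehydrogenases exchange pyruvate with lactate, and the pentose phosphate pathway branches off at glucose 6-phosphate to make NADPH, which fatty acid synthesis uses. Brown fat takes up much glucose when it produces heat, and it carries out a glycerol phosphate shuttle through Gpd1 and the mitochondrial enzyme Gpd2.

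The library labels were checked on Bcl6 itself, which was higher in the libraries labelled Cre-positive: 1.32 ± 0.28 (SE), adjusted p = 0.00438 at 30 °C and 1.70 ± 0.28 (SE), adjusted p = 8.25e-04 at 22 °C. Its groups did not overlap at either temperature (two-sided exact permutation p = 0.0286 each, the smallest that 4 against 4 can give). This goes against the label of a deleted gene, and summed gene values cannot show which exons were read, so these libraries are called Cre-labelled throughout. Totals of normalised counts ran from 10122739 to 13516936 at 22 °C and from 8867615 to 9975035 at 30 °C, and raw depth is unknown. All 14 brown adipocyte markers were found above 0 in every library. The summed level of 30 skeletal muscle markers ran from 953.5 to 46257 between libraries, and that of 18 macrophage markers from 1506 to 18925. In bulk tissue, fewer cells of a type and less RNA per cell cannot be told apart.

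Promoter sequences of the genes that the results turn on are shown first. They come from RefSeq on GRCm38.p6, the build named mm10, as windows of 300 bases that run from 250 before to 50 after an annotated start. Of the 38 genes 35 matched, with 54 windows in all. Capitals mark matches on either strand to 4 strings of letters. ACGTG is the core of the hypoxia response element, and the E-box CACGTG holds it on either strand. The element of estrogen-related receptors is searched as AAGGTCA, and TTCNNNGAA is a palindrome of the kind that BCL6 and STAT factors read. Aldoc, which had the largest difference past the threshold between genotypes among the 38, is shown at its second annotated start (chr11:78323948-78324247, plus strand). Ldha, which had the largest fall of the 38 between temperatures in controls, is shown at the first of its windows (chr7:46845554-46845853, plus strand). Slc16a1 (chr3:104638414-104638713, plus strand) is the lactate carrier that was lower in Cre-labelled libraries at 30 °C. Pgd (chr4:149166656-149166955, minus strand) has a BCL6 peak 13 bases from the window.
Aldoc: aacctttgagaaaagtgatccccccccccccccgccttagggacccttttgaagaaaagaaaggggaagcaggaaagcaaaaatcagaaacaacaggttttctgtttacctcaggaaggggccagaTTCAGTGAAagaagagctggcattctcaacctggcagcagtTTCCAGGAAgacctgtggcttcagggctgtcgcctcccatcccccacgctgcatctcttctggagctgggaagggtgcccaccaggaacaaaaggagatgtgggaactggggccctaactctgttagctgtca
Ldha: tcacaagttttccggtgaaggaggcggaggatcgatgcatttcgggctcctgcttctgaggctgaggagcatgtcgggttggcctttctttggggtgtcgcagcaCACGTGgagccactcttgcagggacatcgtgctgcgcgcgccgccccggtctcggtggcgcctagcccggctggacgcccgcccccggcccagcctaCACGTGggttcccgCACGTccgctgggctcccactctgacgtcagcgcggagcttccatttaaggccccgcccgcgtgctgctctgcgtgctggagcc
Slc16a1: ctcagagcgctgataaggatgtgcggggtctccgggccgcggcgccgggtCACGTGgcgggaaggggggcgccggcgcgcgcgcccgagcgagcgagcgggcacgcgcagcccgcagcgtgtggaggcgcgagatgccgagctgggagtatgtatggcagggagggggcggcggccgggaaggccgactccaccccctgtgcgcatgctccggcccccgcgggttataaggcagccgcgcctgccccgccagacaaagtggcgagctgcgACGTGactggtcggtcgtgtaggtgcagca
Pgd: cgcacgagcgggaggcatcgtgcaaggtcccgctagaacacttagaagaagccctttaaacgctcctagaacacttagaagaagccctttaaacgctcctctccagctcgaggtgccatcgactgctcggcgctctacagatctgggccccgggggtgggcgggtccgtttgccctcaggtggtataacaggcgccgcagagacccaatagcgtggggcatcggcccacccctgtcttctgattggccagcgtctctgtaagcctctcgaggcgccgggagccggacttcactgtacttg

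The letters ACGTG were in 24 of the 54 windows (44.4%), against 19.7% of all 32544 windows of this length, and in at least 1 window of 20 of the 35 genes. The 32544 windows were not limited to genes that passed the filter, and 1 site of Aldoa was counted in a pair of overlapping windows. CACGTG was in 9.26% of the windows of these genes and in 7.17% of all windows. AAGGTCA was in 5.56% against 4.71%, and TTCNNNGAA in 3.7% against 8.33%. The Aldoc window shown held TTCNNNGAA at 124 and at 83 bases before the start, and the only other of these genes with that match was Pfkm. The window at the first annotated start of Aldoc (chr11:78322823-78323122) held no TTCNNNGAA. Its only match was CACGT, the complement of ACGTG, at base 28 from the start. The Pgd window shown held none of the 4 strings, and neither did the other Ldha window (chr7:46846832-46847131). AAGGTCA or its complement was found in Eno1 (chr4:150236530-150236566), Tpi1 (chr6:124814129-124814165) and Pfkfb1 (chrX:150589801-150589837), shown here because the first pair of them fell at 30 °C and the last was never past the threshold.
Eno1: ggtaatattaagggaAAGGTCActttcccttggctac
Tpi1: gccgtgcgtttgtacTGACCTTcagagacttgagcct
Pfkfb1: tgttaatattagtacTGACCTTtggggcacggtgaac
A match describes letters and is not a site of binding.

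As a share of all normalised counts, the 38 genes made up 3.65% ± 0.31 (SD, n = 4) in controls at 22 °C and 3.33% ± 0.69 in Cre-labelled libraries at 22 °C. At 30 °C the share was 2.41% ± 0.11 in controls and 1.91% ± 0.26 in Cre-labelled libraries. Every library at 30 °C except control library 2 lay below every library at 22 °C: control library 2 at 30 °C was at 2.57%, above Cre-labelled library 3 at 22 °C at 2.47%. Both 30 °C groups were apart from each other, with controls from 2.34 to 2.57% and Cre-labelled libraries from 1.56 to 2.13%.

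**Figure D1:**
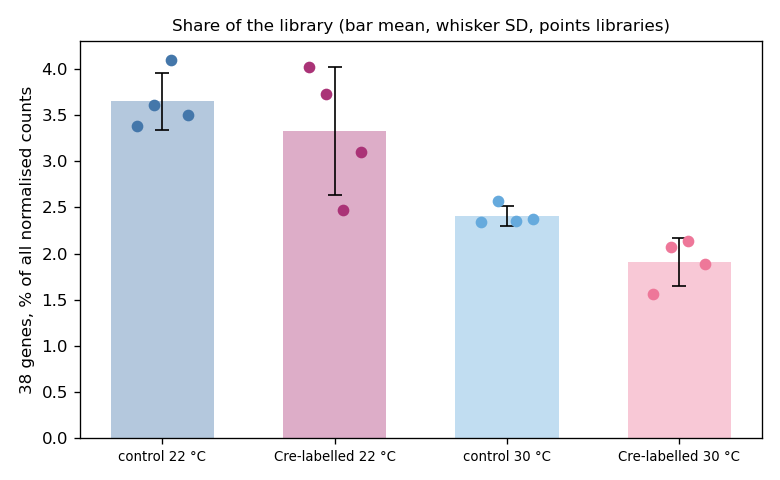
Share of all normalised counts taken by the 38 genes, in percent, for the 4 groups; bars are means, whiskers SD and points the 4 libraries of each group. The means are 3.65, 3.33, 2.41 and 1.91% from left to right.

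Libraries differed within groups. Cre-labelled library 3 at 22 °C had the lowest value of its group for 23 of 38 genes and lay 0.324 below the group's median gene by gene on the log2 scale (median over the genes). Cre-labelled library 1 at 30 °C also had the lowest value for 23 of 38 genes. Calls that single libraries, these among them, end or add are given beside the genes.

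**Figure D2:**
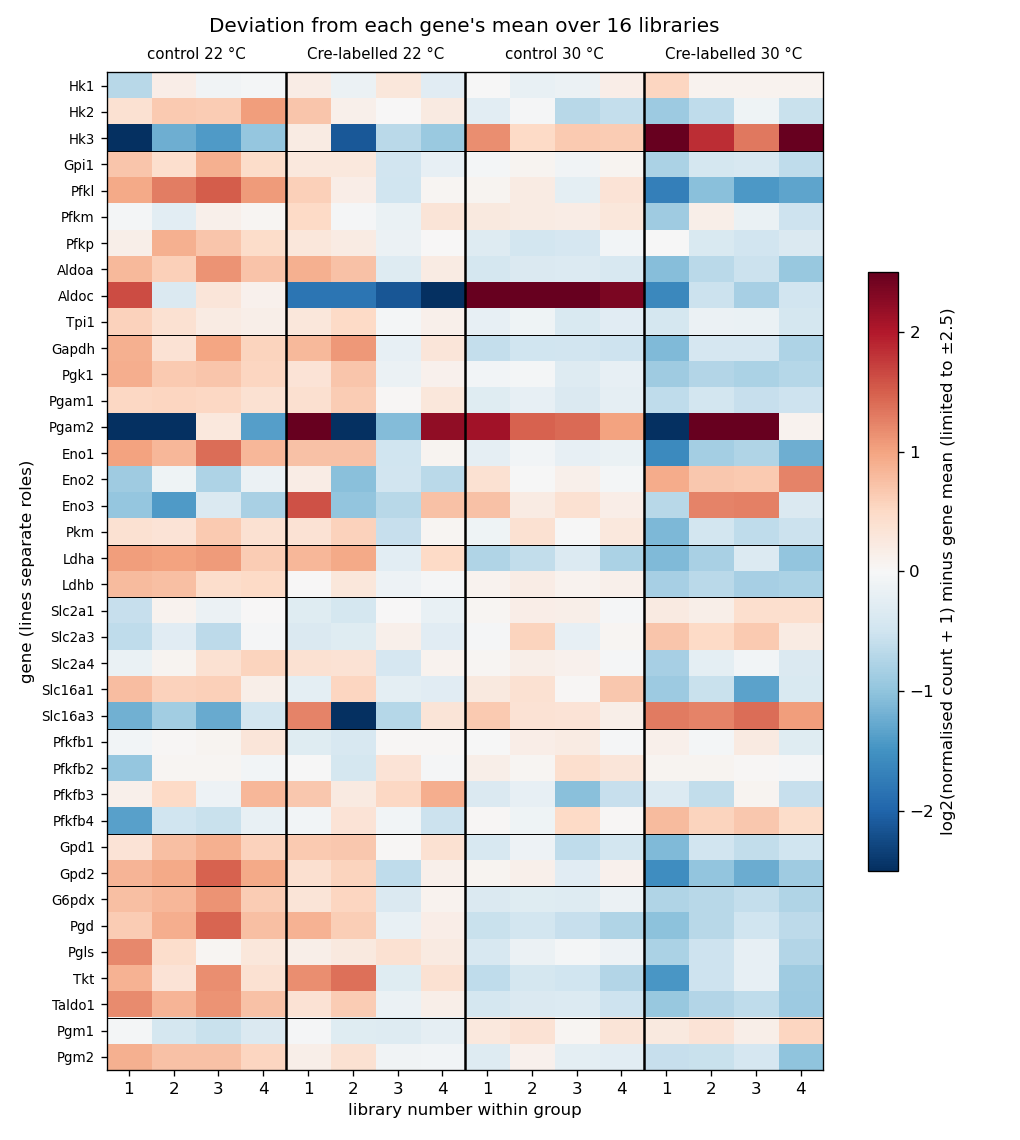
Deviation of log2(normalised count + 1) from each gene's mean over 16 libraries, with genes in rows grouped by role and libraries in columns grouped by label and temperature; colours stop at 2.5 in either direction. Most rows of the glycolytic and pentose phosphate enzymes go from red at 22 °C to blue at 30 °C, and Hk3 and Aldoc stand out in the opposite direction in controls.

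The comparison of genotypes asks how these genes differ between Cre-labelled and control fat at one temperature. At 30 °C, 11 of the 38 genes were lower in Cre-labelled libraries and 0 were higher (limma, adjusted over all 13176 genes, threshold 0.05), and at 22 °C 8 were lower and 0 higher. Over all genes tested, 6.85% were called lower and 5.65% higher at 30 °C, and 4.69% lower and 5.51% higher at 22 °C. The share differed with the level of a gene: of the 2178 kept genes with a mean of at least 1000 normalised counts, 13.3% were lower at 30 °C and 10.9% at 22 °C, and of the 24 genes described here with such a mean 10 (41.7%) and 7 (29.2%) were. At an unadjusted p under 0.05, 4 of the 38 were higher at 30 °C and 1 at 22 °C. The median log2 difference of the 38 genes was -0.23 at 30 °C (0.006 over all genes) and -0.222 at 22 °C (-0.004 over all genes). With quantile normalisation, which gives every library the same distribution, these medians were -0.128 and -0.106 (-0.009 and -0.023 over all genes). Of the 2178 genes 15.5% were then lower at 30 °C and 4.87% at 22 °C, and of the 24 genes 50.0% and 20.8%. Groups did not overlap for 16 genes that were lower and 3 that were higher at 30 °C, where 12.4% and 10.5% of all genes did so, and for 9 lower and 0 higher at 22 °C, where 6.06% and 6.38% did so. The pair of comparisons share no library in their differences, but their p-values use a spread estimated over all 16 libraries. They are therefore not independent. Lower in both were 6 genes, 6 of the 11 at 30 °C and 6 of the 8 at 22 °C: Aldoc, Pfkl, Gpi1, Ldhb, Gpd2 and Pgm2. The share of all genes lower in both is not given here.

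**Figure D3:**
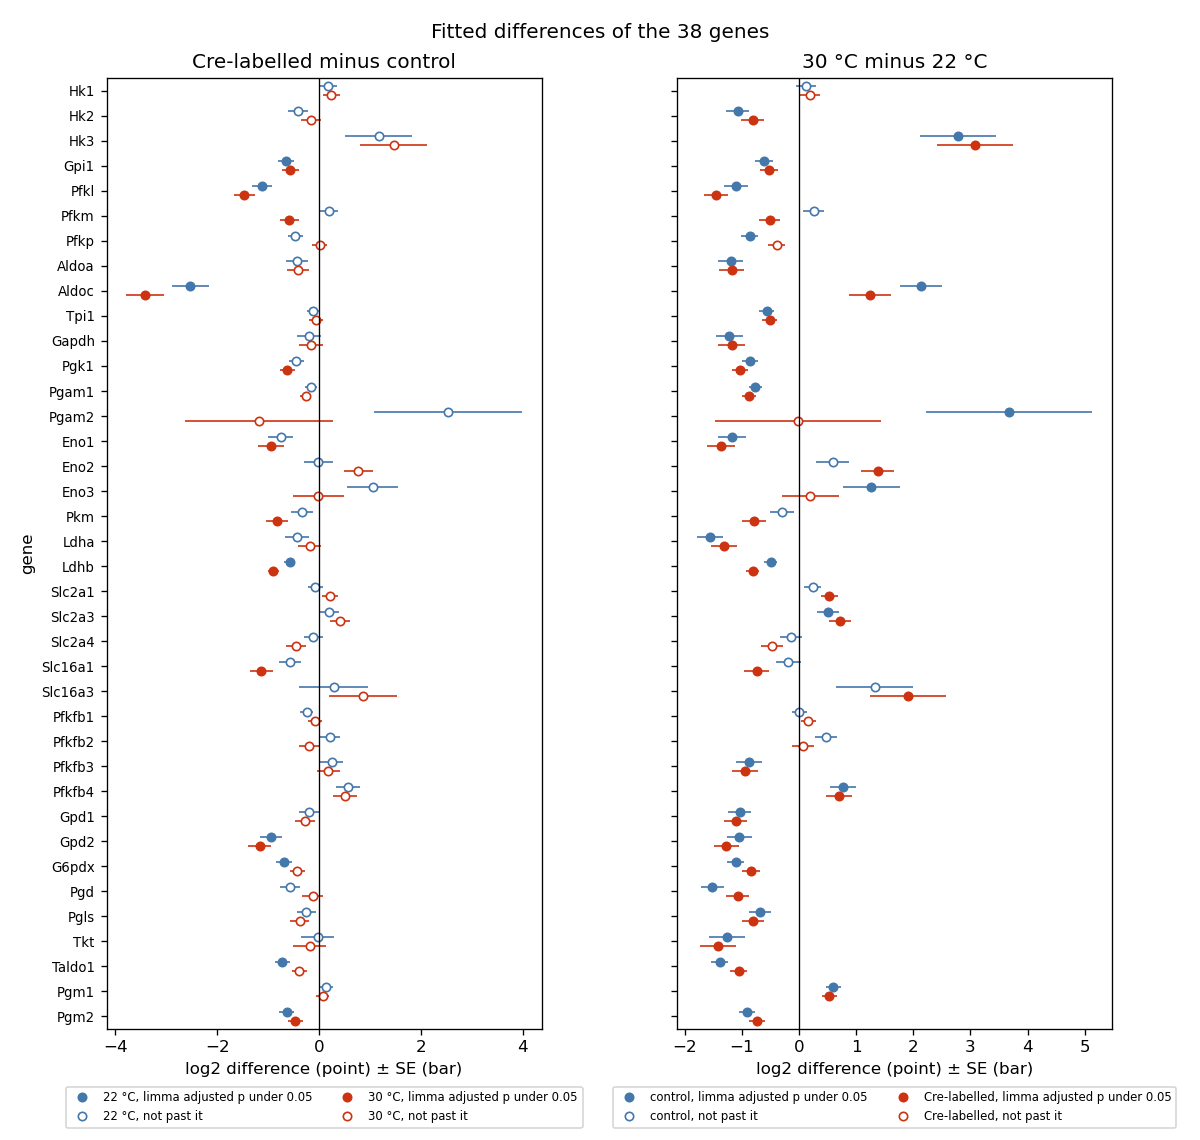
Fitted log2 differences (points) and their SE (bars) of the 38 genes, with Cre-labelled minus control on the left (22 °C in blue, 30 °C in red) and 30 °C minus 22 °C on the right (control in blue, Cre-labelled in red); filled points passed the adjusted threshold of 0.05. On the left the filled points all lie below 0, led by Aldoc at -3.41, and on the right most filled points lie below 0.

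Among the genes of upper glycolysis, Aldoc had the largest difference past the threshold. It encodes the aldolase isoform that is best known from brain and splits fructose bisphosphate. Aldoc read 66.5, 15.96, 26.1 and 22.7 in controls and 5.17, 5.19, 3.99 and 2.52 in Cre-labelled fat at 22 °C. With housing at 30 °C Aldoc read 128, 136, 136 and 111 in controls and 6.21, 14.0, 11.2 and 14.7 in Cre-labelled fat. No Cre-labelled library reached any control library at its own temperature, and the 30 °C controls were above all other libraries. The log2 difference of Aldoc between genotypes was -3.41 ± 0.37 (SE), adjusted p = 1.54e-05 at 30 °C and -2.53 ± 0.37 (SE), adjusted p = 3.43e-04 at 22 °C. With 5 in place of 1 added before the logarithm the latter was -1.88, since this gene is low. Where 2 values follow a gene below, the first is for 30 °C and the second for 22 °C. Aldoa, the aldolase of muscle and most other tissues, had differences of -0.41 (adjusted p = 0.25) and -0.43 (adjusted p = 0.233). The groups of Aldoa at 30 °C did not overlap, and with that pair of groups compared alone it was lower (adjusted p = 0.0426).

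Pfkl, the liver-type subunit of phosphofructokinase, which commits glucose to glycolysis, read 7792, 9906, 11612 and 8484 in controls and 6124, 4585, 2868 and 4215 in Cre-labelled fat at 22 °C. With housing at 30 °C Pfkl read 4242, 4676, 3444 and 5174 in controls and 1234, 1958, 1509 and 1637 in Cre-labelled fat. Its groups did not overlap at either temperature, and the Cre-labelled libraries at 30 °C were the lowest 4 of 16. The difference of Pfkl was -1.47 ± 0.20 (SE), adjusted p = 1.67e-04 at 30 °C and -1.12 ± 0.20 (SE), adjusted p = 0.00219 at 22 °C. Pfkp, the platelet-type subunit, had differences of 0.01 (adjusted p = 0.976) and -0.46 (adjusted p = 0.0615), and at 22 °C it was lower without control library 1 (adjusted p = 0.0132) or Cre-labelled library 2 (0.0453).

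Gpi1, the isomerase that turns glucose 6-phosphate into fructose 6-phosphate, read 12890, 10685, 14673 and 10893 in controls and 9577, 9564, 5694 and 6894 in Cre-labelled fat at 22 °C. With housing at 30 °C Gpi1 read 7714, 8311, 7465 and 8382 in controls and 4615, 5888, 6034 and 5150 in Cre-labelled fat. The Cre-labelled libraries were below all controls at both temperatures. Its difference was -0.56 ± 0.16 (SE), adjusted p = 0.0301 at 30 °C and -0.65 ± 0.16 (SE), adjusted p = 0.0168 at 22 °C. These calls were near the threshold: without single libraries of the 30 °C groups (control 1, 2 or 4, Cre-labelled 1 or 4) the adjusted p of Gpi1 at 30 °C rose to between 0.0592 and 0.1, and at 22 °C to between 0.0533 and 0.0615 without control library 3 or Cre-labelled library 3 or 4. With quantile normalisation Gpi1 at 22 °C had -0.37 (adjusted p = 0.0836), and with the pair of groups compared alone its adjusted p there was 0.099. Tpi1, which interconverts the 3-carbon products of aldolase, had differences of -0.06 (adjusted p = 0.84) and -0.11 (adjusted p = 0.643).

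In lower glycolysis, 3 of 8 genes were lower in Cre-labelled libraries at 30 °C and 0 at 22 °C by limma, where 2 were lower at an unadjusted p under 0.05. Eno1, the widely expressed enolase, read 39505, 35226, 51991 and 35018 in controls and 32855, 33036, 13948 and 20744 in Cre-labelled fat at 22 °C. With housing at 30 °C Eno1 read 16957, 18855, 17054 and 17691 in controls and 6514, 10936, 11686 and 8476 in Cre-labelled fat. At 30 °C the groups were apart, and at 22 °C every Cre-labelled library was below every control library, although by little for libraries 1 and 2. The difference of Eno1 was -0.94 ± 0.25 (SE), adjusted p = 0.0181 at 30 °C, and -0.75 ± 0.25 (SE), adjusted p = 0.0613 at 22 °C. Without Cre-labelled library 1 or 4 the adjusted p at 30 °C was 0.0722 or 0.0516, and at 22 °C it was 0.0423 without Cre-labelled library 1 and 0.02 without Cre-labelled library 2.

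Pgk1, which makes ATP from bisphosphoglycerate, read 15212, 12771, 13202 and 11878 in controls and 10335, 13174, 7375 and 8787 in Cre-labelled fat at 22 °C. With housing at 30 °C Pgk1 read 7787, 7851, 6486 and 7091 in controls and 4383, 4883, 4715 and 4945 in Cre-labelled fat. Groups were apart at 30 °C and overlapped at 22 °C through Cre-labelled library 2. Its difference was -0.62 ± 0.15 (SE), adjusted p = 0.0101 at 30 °C and -0.45 ± 0.15 (SE), adjusted p = 0.0622 at 22 °C, where the value without Cre-labelled library 2 was -0.59 (adjusted p = 0.00515). Pkm, the pyruvate kinase of most tissues outside liver, was lower at 30 °C, at -0.82 ± 0.21 (SE), adjusted p = 0.0178, with an adjusted p of 0.0715 without Cre-labelled library 1, 0.0537 without control library 2 and 0.0587 without control library 4. At 22 °C its value was -0.33 (adjusted p = 0.358). Gapdh, the dehydrogenase often used as a reference gene, had differences of -0.15 (adjusted p = 0.749) and -0.20 (adjusted p = 0.646).

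Of the lactate dehydrogenases, Ldhb, the heart-type subunit, was lower at both temperatures. Ldhb read 14326, 13785, 11110 and 11591 in controls and 8314, 10071, 7583 and 8066 in Cre-labelled fat at 22 °C. With housing at 30 °C Ldhb read 8728, 9370, 8745 and 8954 in controls and 4642, 5160, 4661 and 4786 in Cre-labelled fat. Its Cre-labelled libraries at 30 °C lay within 4642 to 5160, below the other 12 libraries. The difference was -0.90 ± 0.11 (SE), adjusted p = 6.63e-05 at 30 °C and -0.58 ± 0.11 (SE), adjusted p = 0.00342 at 22 °C. The call at 22 °C ended with quantile normalisation (-0.30, adjusted p = 0.0522) and with the pair of groups compared alone (adjusted p = 0.0629). Ldha, the muscle-type subunit, had -0.18 (adjusted p = 0.678) and -0.43 (adjusted p = 0.249).

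Among the carriers, Slc16a1, which moves lactate and pyruvate with a proton, was lower at 30 °C. Slc16a1 read 4951, 4362, 4398 and 3215 in controls and 2465, 4238, 2448 and 2405 in Cre-labelled fat at 22 °C. With housing at 30 °C Slc16a1 read 3469, 3814, 2959 and 4627 in controls and 1550, 1976, 1151 and 2236 in Cre-labelled fat. At 22 °C Cre-labelled library 2 was the one of its group within the control range. The difference was -1.13 ± 0.22 (SE), adjusted p = 0.00262 at 30 °C and -0.58 ± 0.22 (SE), adjusted p = 0.103 at 22 °C, where it was -0.78 (adjusted p = 0.0158) without Cre-labelled library 2. Slc2a4, the insulin-responsive glucose carrier, had -0.45 (adjusted p = 0.142) and -0.11 (adjusted p = 0.758), and its groups at 30 °C did not overlap. Slc2a1, the basal glucose carrier, had 0.22 (adjusted p = 0.399) and -0.07 (adjusted p = 0.8), and Slc2a3, a high-affinity carrier, 0.41 (adjusted p = 0.193) and 0.20 (adjusted p = 0.554). Slc16a3, the lactate exporter of glycolytic cells, was low in all libraries and had 0.87 (adjusted p = 0.46) and 0.29 (adjusted p = 0.83). Without Cre-labelled library 2 at 22 °C, in which it was at 0, the difference at 22 °C was 1.23 and passed (adjusted p = 0.0404), and with the pair of groups compared alone that at 30 °C passed (adjusted p = 0.0208).

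Gpd2, the mitochondrial enzyme of the glycerol phosphate shuttle, read 10922, 11661, 16856 and 11610 in controls and 7975, 8891, 3880 and 6627 in Cre-labelled fat at 22 °C. With housing at 30 °C Gpd2 read 6376, 6610, 4973 and 6496 in controls and 2065, 3063, 2578 and 3276 in Cre-labelled fat. The groups were apart at both temperatures. Its difference was -1.17 ± 0.22 (SE), adjusted p = 0.00235 at 30 °C and -0.94 ± 0.22 (SE), adjusted p = 0.0125 at 22 °C, the latter with an adjusted p of 0.0685 when the pair of groups was compared alone. The cytosolic partner Gpd1 had -0.27 (adjusted p = 0.427) and -0.20 (adjusted p = 0.564).

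Of the 5 pentose phosphate enzymes, 2 were lower in Cre-labelled libraries at 22 °C and 0 at 30 °C. Taldo1, transaldolase of the branch that rejoins glycolysis, read 14032, 11135, 13405 and 10231 in controls and 7917, 9614, 5570 and 6827 in Cre-labelled fat at 22 °C. With housing at 30 °C Taldo1 read 4528, 4766, 4862 and 4306 in controls and 3189, 3703, 3960 and 3304 in Cre-labelled fat. Groups were apart at both temperatures. The difference was -0.72 ± 0.15 (SE), adjusted p = 0.00528 at 22 °C and -0.39 ± 0.15 (SE), adjusted p = 0.103 at 30 °C. G6pdx, the first and rate-setting enzyme, read 2741, 2886, 3532 and 2540 in controls and 2027, 2372, 1261 and 1726 in Cre-labelled fat at 22 °C. With housing at 30 °C G6pdx read 1273, 1324, 1305 and 1476 in controls and 962, 1002, 1079 and 963 in Cre-labelled fat. Its groups were also apart at both temperatures, with -0.69 ± 0.15 (SE), adjusted p = 0.00801 at 22 °C and -0.42 ± 0.15 (SE), adjusted p = 0.0785 at 30 °C. With the pair of groups compared alone, the adjusted p at 22 °C was 0.0629 for Taldo1 and 0.0751 for G6pdx, and that at 30 °C was 0.0151 and 0.00545. At 30 °C both also passed with quantile normalisation (0.0243 and 0.0351) and without Cre-labelled library 2 at 22 °C (0.0497 and 0.0372), and G6pdx without Cre-labelled library 3 at 22 °C (0.0237). Pgd had -0.13 (adjusted p = 0.76) and -0.57 (adjusted p = 0.0865), and passed at 22 °C without Cre-labelled library 1 (adjusted p = 0.0355). Tkt, transketolase, had -0.19 (adjusted p = 0.773) and -0.03 (adjusted p = 0.968), and spread widely among Cre-labelled libraries at 22 °C, which read 64871, 74645, 23513 and 37710.

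The phosphoglucomutase genes are named here as deposited. The entry named Pgm2 (Entrez 72157, chromosome 4) is Pgm1 in RefSeq, and the entry named Pgm1 (Entrez 66681, chromosome 5) is Pgm2 in RefSeq. The deposited Pgm2, which interconverts glucose 1-phosphate and glucose 6-phosphate, read 4441, 3967, 3977 and 3481 in controls and 2624, 3097, 2250 and 2284 in Cre-labelled fat at 22 °C. With housing at 30 °C Pgm2 read 1903, 2580, 2010 and 1999 in controls and 1605, 1617, 1772 and 1188 in Cre-labelled fat. Cre-labelled libraries were lower than all controls at both temperatures. The difference was -0.64 ± 0.14 (SE), adjusted p = 0.00814 at 22 °C and -0.46 ± 0.14 (SE), adjusted p = 0.0388 at 30 °C. At 30 °C the adjusted p rose to between 0.0504 and 0.138 without any of control libraries 1 to 4 or Cre-labelled library 1, 2 or 4. The deposited Pgm1 had 0.07 (adjusted p = 0.799) and 0.14 (adjusted p = 0.564).

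The hexokinases and the fructose bisphosphate regulators held no call between genotypes with all libraries fitted together. Hk2, the insulin-responsive hexokinase of muscle and fat, had -0.15 (adjusted p = 0.687) and -0.42 (adjusted p = 0.192) (-0.57, adjusted p = 0.048 at 22 °C with the skeletal muscle score as a covariate), and Hk1 0.24 (adjusted p = 0.421) and 0.18 (adjusted p = 0.564). Hk3, which is most abundant in myeloid cells, read 53.1, 33.2, 37.04 and 36.9 in controls and 154, 86.4, 59.6 and 188 in Cre-labelled libraries at 30 °C, groups that do not overlap, with 1.47 (adjusted p = 0.169). Hk3 was higher at 30 °C with 5 added before the logarithm (adjusted p = 0.0354), with quantile normalisation (0.0249), with the pair of groups compared alone (0.0148) and without control library 1 at 22 °C (0.0263). Pfkfb4 at 30 °C, with 0.51 (adjusted p = 0.168), passed with the pair of groups compared alone (0.0424) and without the 2 libraries with the fewest genes above 0 (0.0329). Eno2, the neuron-type enolase, also did not overlap at 30 °C, with 0.77 (adjusted p = 0.0887), and passed in the same 2 settings as Pfkfb4 (0.0283 and 0.0353). Beside these 2 genes, 18 macrophage markers summed to between 4232 and 5326 in controls and between 7273 and 18925 in Cre-labelled libraries at 30 °C, 14 of them were higher, and none was at 0 in any library. Their part in Hk3 and Eno2 was not tested. The 27 genes without a call at 30 °C ranged from -1.17 to 1.47 in log2 difference and the 30 without a call at 22 °C from -0.75 to 2.53.

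**Figure D4:**
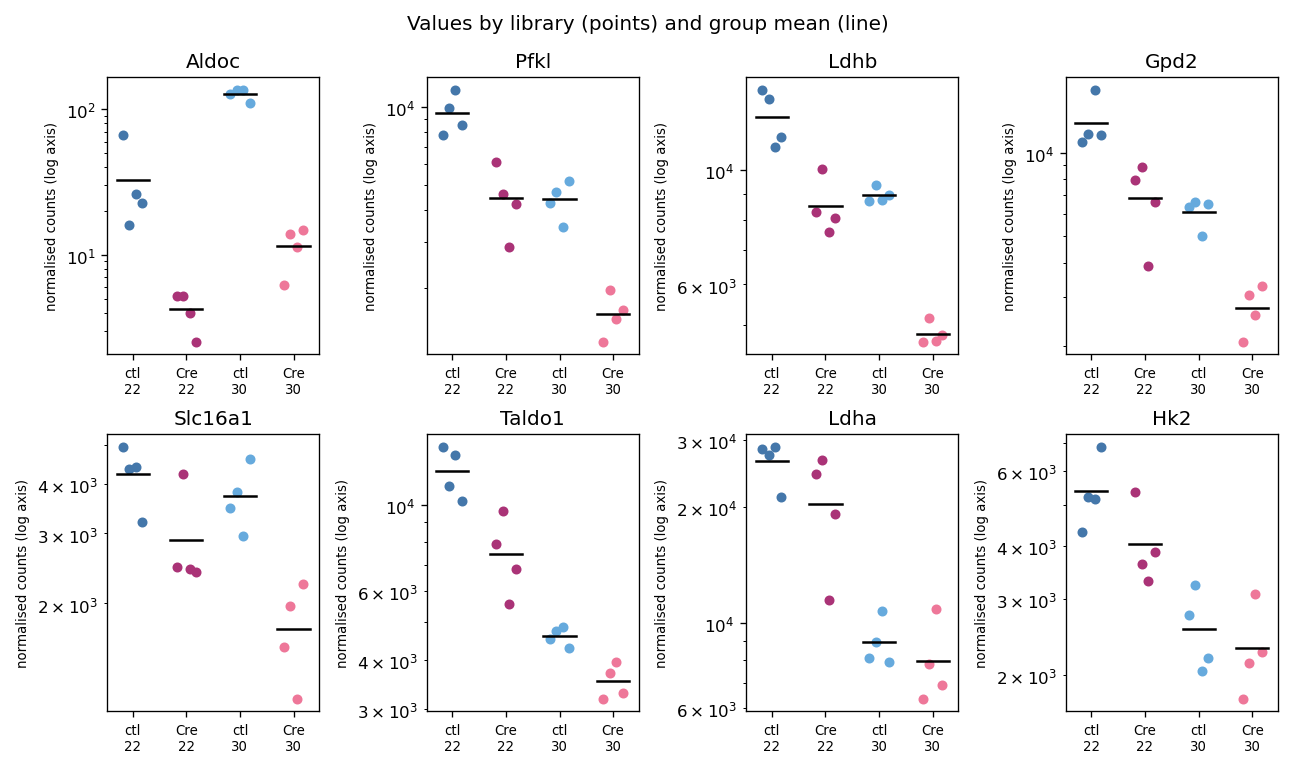
Normalised counts (log axis) of 8 genes in the control (ctl) and Cre-labelled (Cre) libraries at 22 and 30 °C, with points for libraries and a line for the group mean. Aldoc is the only one of the 8 whose control libraries are higher at 30 °C, and the Cre-labelled libraries lie below controls at both temperatures in Aldoc, Pfkl, Ldhb, Gpd2 and Taldo1.

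Some brown adipocyte markers were lower in the same comparison. At 30 °C 4 of 14 were lower and 0 higher in Cre-labelled libraries by limma. The 14 ran from -1.68 to 1.36, with a median of -0.397 and 3 of them above 0. The lowest of the 14 was Ucp1 with -1.68 ± 0.25 (SE), adjusted p = 2.80e-04. At 22 °C 2 of 14 were lower and 0 higher. The 14 ran there from -3.90 to 0.26, with a median of -0.117 and 3 of them above 0. Of 10 endothelial markers 4 were higher and 0 lower in Cre-labelled libraries at each temperature, with sums from 21780 to 27079 in controls and from 26996 to 33463 in Cre-labelled libraries at 30 °C, and from 14411 to 21817 and 17308 to 30414 at 22 °C. Of the 18 macrophage markers 9 were higher and 1 lower at 22 °C, with sums from 1506 to 2528 in controls and from 2584 to 3651 in Cre-labelled libraries. None of the brown adipocyte, endothelial and macrophage markers was at 0 in any library. Their part in the lower values of the glycolytic genes was not tested.

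The comparison of temperatures asks how housing at 30 °C, where mice need little extra heat, differs from 22 °C. In controls 21 of 38 genes were lower and 7 higher at 30 °C, and in Cre-labelled libraries 23 were lower and 8 higher. Over all genes tested, 22.7% were called lower and 22.9% higher in controls, and 17.7% and 15.0% in Cre-labelled libraries. The median log2 difference of the 38 genes was -0.591 (0.038 over all genes) in controls and -0.737 (0.023 over all genes) in Cre-labelled libraries, and with quantile normalisation these medians were -0.081 and -0.364. Groups did not overlap for 21 lower and 10 higher genes in controls, against 21.3% and 19.9% of all genes, and for 19 lower and 7 higher genes in Cre-labelled libraries, against 18.3% and 16.2%. These comparisons share no library in their differences, but they too share the spread estimated over all 16 libraries and are not independent. Lower in both were 20 genes, 20 of the 21 in controls and 20 of the 23 in Cre-labelled libraries. Another 5 genes were higher in both, 5 of the 7 and 5 of the 8. Each shares libraries with the genotype comparisons, so no overlap with those is given. Where 2 values follow a gene from here on, the first is for controls and the second for Cre-labelled libraries.

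The direction differed with the mean normalised count of the gene, a scale that is not per length. Of the 24 genes with a mean of at least 1000, 20 were lower in controls and 23 in Cre-labelled libraries and 0 were higher in either. Of the 14 below that, 1 was lower and 7 higher in controls, and 0 and 8 in Cre-labelled libraries. Over all 2178 kept genes with a mean of at least 1000, 44.5% were lower and 12.7% higher in controls, and 38.6% and 9.27% in Cre-labelled libraries. The direction thus also differed with level over all genes. The share over all kept genes below that mean is not given here. With quantile normalisation 13 genes were lower and 5 higher in controls, and 17 and 7 in Cre-labelled libraries. Of all 13176 genes, 2791 were then lower and 2382 higher in controls, and 2351 and 1968 in Cre-labelled libraries. Of the 2178 genes with a mean of at least 1000, 25.2% were then lower and 25.2% higher in controls, and 26.9% and 19.9% in Cre-labelled libraries. Calls that this scaling ended in controls were those of Eno1 (-0.44, adjusted p = 0.0726), Gpd1 (-0.14, adjusted p = 0.47), Gpi1 (-0.04, adjusted p = 0.842), Tkt (-0.55, adjusted p = 0.12), Tpi1 (-0.13, adjusted p = 0.284), Pgls (-0.43, adjusted p = 0.0611), Pfkfb3 (-0.40, adjusted p = 0.207), Pfkfb4 (0.47, adjusted p = 0.0984), Slc2a3 (0.15, adjusted p = 0.582), Eno3 (1.26, adjusted p = 0.0576) and Pgam2 (2.62, adjusted p = 0.102), and the sign of Ldhb turned to 0.09 (adjusted p = 0.438). It added higher calls of Pfkfb2 (0.52, adjusted p = 0.0393) and Pfkm (0.51, adjusted p = 0.0384). In Cre-labelled libraries it ended those of Gpd1 (adjusted p = 0.0579), Gpi1 (0.396), Pkm (0.145), Pfkfb3 (0.133), Tpi1 (0.154), Pfkm (0.156) and Aldoc (0.0622). Calls that it kept but made smaller by over 1.5 times were, in controls, those of Ldha (-0.94), Aldoa (-0.47), Gapdh (-0.52) and Hk3 (1.68), and in Cre-labelled libraries those of Gapdh (-0.56) and Tkt (-0.81).

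All 5 pentose phosphate enzymes were lower at 30 °C in both genotypes on the deposited scale. Taldo1 was lower, at -1.39 ± 0.15 (SE), adjusted p = 3.70e-06 in controls and at -1.06 ± 0.15 (SE), adjusted p = 8.23e-05 in Cre-labelled libraries, and Pgd, which makes further NADPH of the pathway, at -1.52 ± 0.20 (SE), adjusted p = 3.12e-05 and -1.08 ± 0.20 (SE), adjusted p = 8.23e-04. Pgd read 3233, 3901, 5726 and 3503 in controls and 3823, 3188, 1824 and 2344 in Cre-labelled fat at 22 °C. With housing at 30 °C Pgd read 1417, 1510, 1395 and 1243 in controls and 1028, 1295, 1478 and 1329 in Cre-labelled fat. Every 30 °C library of Pgd was below every 22 °C library. G6pdx had -1.11 (adjusted p = 3.56e-05) and -0.84 (adjusted p = 5.49e-04), Tkt -1.26 (adjusted p = 0.0047) and -1.42 (adjusted p = 0.00297), and Pgls, the lactonase between G6pdx and Pgd, -0.68 (adjusted p = 0.00799) and -0.81 (adjusted p = 0.00372).

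In upper glycolysis, Pfkl was lower at 30 °C, at -1.11 ± 0.20 (SE), adjusted p = 4.27e-04 in controls and -1.46 ± 0.20 (SE), adjusted p = 7.73e-05 in Cre-labelled libraries. Aldoa had -1.20 (adjusted p = 3.84e-04) and -1.18 (adjusted p = 6.32e-04), Gpi1 -0.61 (adjusted p = 0.00572) and -0.52 (adjusted p = 0.0198), and Tpi1 -0.57 (adjusted p = 0.00251) and -0.51 (adjusted p = 0.00689). Pfkp was lower in controls, -0.87 (adjusted p = 2.86e-04), and had -0.39 (adjusted p = 0.0565) in Cre-labelled libraries, where it passed without control library 1 (0.0272) or 2 (0.0418) or Cre-labelled library 3 (0.0337) at 22 °C, without Cre-labelled library 1 at 30 °C (0.0301) and with the pair of groups compared alone (0.0457). Gpi1 in Cre-labelled libraries lost its call without libraries 1 or 2 at 22 °C or library 1 at 30 °C (adjusted p 0.0701, 0.0672 and 0.0697). Aldoc went the other way from the other aldolase, higher, at 2.13 ± 0.37 (SE), adjusted p = 2.67e-04 in controls and 1.24 ± 0.37 (SE), adjusted p = 0.0161 in Cre-labelled libraries, the latter with an adjusted p of 0.0521 without Cre-labelled library 4 at 22 °C. Of the 38 genes it was the only one lower in Cre-labelled libraries and higher at 30 °C in every one of these 4 comparisons.

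In lower glycolysis Gapdh was lower, at -1.23 (adjusted p = 6.31e-04) in controls and -1.18 (adjusted p = 0.00127) in Cre-labelled libraries. Pgam1, the widely expressed phosphoglycerate mutase, read 12346, 12406, 12240 and 11138 in controls and 11355, 13290, 8703 and 10431 in Cre-labelled fat at 22 °C. With housing at 30 °C Pgam1 read 6913, 7423, 6632 and 7312 in controls and 5510, 6272, 5774 and 5969 in Cre-labelled fat. Its 22 °C and 30 °C libraries did not overlap in either genotype, with -0.77 (adjusted p = 8.98e-05) and -0.88 (adjusted p = 5.16e-05). Pgk1 had -0.86 (adjusted p = 2.39e-04) and -1.04 (adjusted p = 8.67e-05), and Eno1 -1.18 (adjusted p = 0.00114) and -1.37 (adjusted p = 5.54e-04). Pkm was called in Cre-labelled libraries alone, -0.79 (adjusted p = 0.00919), against -0.30 (adjusted p = 0.262) in controls. Eno2 was higher in Cre-labelled libraries at 30 °C, 1.37 (adjusted p = 0.00154), against 0.59 (adjusted p = 0.1) in controls. The interaction tests whether such pairs differ, and is given below.

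Ldha had the largest fall of the 38 in controls on the deposited scale, -1.57 ± 0.23 (SE), adjusted p = 6.02e-05 (-0.94 with quantile normalisation), and -1.32 ± 0.23 (SE), adjusted p = 4.13e-04 in Cre-labelled libraries. Ldha read 28396, 27410, 28712 and 21341 in controls and 24492, 26533, 11458 and 19273 in Cre-labelled fat at 22 °C. With housing at 30 °C Ldha read 8122, 8942, 10775 and 7894 in controls and 6350, 7800, 10871 and 6897 in Cre-labelled fat. In Cre-labelled fat, library 3 at 22 °C was far below its group and close to the highest 30 °C library. Ldhb had -0.50 (adjusted p = 0.00204) and -0.81 (adjusted p = 6.87e-05), though the sign in controls turned under quantile normalisation as given above.

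Among hexokinases Hk2 was lower, -1.08 (adjusted p = 3.88e-04) and -0.81 (adjusted p = 0.00436), and Hk3 higher, 2.78 (adjusted p = 0.0028) and 3.08 (adjusted p = 0.00196). The value of Hk3 in controls rests in part on library 1 at 22 °C, where it was at 0: it was 1.93 without that library (adjusted p = 0.00315), 1.99 with 5 added before the logarithm and 1.68 with quantile normalisation. Of the macrophage markers 16 of 18 were higher in controls and 17 of 18 in Cre-labelled libraries at 30 °C, and their sums ran from 1506 to 3651 at 22 °C and from 4232 to 18925 at 30 °C. Of 10 fibroblast progenitor markers 7 were higher and 0 lower at 30 °C in each genotype, with medians of 0.964 in controls and 0.876 in Cre-labelled libraries, and their sums ran from 8100 to 11226 at 22 °C and from 15959 to 21071 at 30 °C. Endothelial markers were higher for 5 of 10 in controls and 4 of 10 in Cre-labelled libraries. None of these markers was at 0 in any library, and their part in Hk3 and in the other genes was not tested. Among carriers, Slc2a3 was higher, 0.50 (adjusted p = 0.0446) and 0.71 (adjusted p = 0.00998), but in controls the adjusted p rose to between 0.0506 and 0.154 without any of 10 single libraries: control 1, 2 or 3 and Cre-labelled 1 or 4 at 22 °C, and control 1, 2 or 4 and Cre-labelled 2 or 3 at 30 °C. Slc2a1 (0.53 (adjusted p = 0.0118)), Slc16a3 (1.91 (adjusted p = 0.038)) and Slc16a1 (-0.74 (adjusted p = 0.0153)) were called in Cre-labelled libraries alone, the first pair higher and the last lower. In controls Slc16a3 had 1.32 (adjusted p = 0.117) and passed without Cre-labelled library 2 at 22 °C (0.00687) or with the pair of groups compared alone (0.0155). Slc16a3 lost its call without library 2 or 3 at 22 °C or without any of the 4 at 30 °C (0.0604 to 0.0806), its value without library 2 at 22 °C being 0.97, without library 1 there 2.54 and with 5 added before the logarithm 1.22, and Slc16a1 without library 2 at 22 °C (0.0578) or 3 at 30 °C (0.0587).

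Pfkfb3, an inducible enzyme that makes the activator of phosphofructokinase, was lower, -0.88 (adjusted p = 0.00469) and -0.95 (adjusted p = 0.00389). Pfkfb4, a related enzyme, was higher, 0.76 (adjusted p = 0.0124) and 0.70 (adjusted p = 0.0253), the latter lost without library 4 at 22 °C (0.089), or library 1 (0.0727) or 3 (0.0539) at 30 °C. Gpd1 had -1.04 (adjusted p = 5.75e-04) and -1.11 (adjusted p = 5.35e-04), and Gpd2 -1.05 (adjusted p = 0.00127) and -1.27 (adjusted p = 4.45e-04). The deposited Pgm2 had -0.91 (adjusted p = 1.03e-04) and -0.73 (adjusted p = 8.75e-04), and the deposited Pgm1 was higher, 0.60 (adjusted p = 0.00192) and 0.53 (adjusted p = 0.00595). Genes without a call ranged from -0.30 to 1.32 in controls (10 genes) and from -0.48 to 0.20 in Cre-labelled libraries (7 genes). Pfkfb1, Pfkfb2, Hk1 and Slc2a4 passed the threshold in none of the 4 comparisons with all libraries fitted together. Slc2a4 in Cre-labelled libraries, with -0.48 (adjusted p = 0.0623), was lower without Cre-labelled library 3 at 22 °C (-0.65, adjusted p = 0.0104), Cre-labelled library 3 at 30 °C (0.0401) or control library 1 at 22 °C (0.044). Pfkfb2 in controls, with 0.47 (adjusted p = 0.0589), was higher without control library 2 (0.039) or 3 (0.0418) or Cre-labelled library 2 (0.0417) at 22 °C. Brown adipocyte markers were lower at 30 °C for 10 of 14 in controls and 9 of 14 in Cre-labelled libraries, and their part was not tested.

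The interaction asks whether the genotype difference itself differed between temperatures, and 0 of 38 genes passed in either direction (limma), where 0.175% of all genes were called higher and 0.266% lower. At an unadjusted p under 0.05, 1 gene was higher and 1 lower. The smallest adjusted p was that of Pfkm, -0.77 (adjusted p = 0.276). Aldoc had -0.89 (adjusted p = 0.603), so a gene called at one temperature and not at the other is not shown to differ between them.

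The muscle isoforms Eno3, Pgam2 and Pfkm are taken apart because brown fat lies against skeletal muscle. Eno3, the muscle enolase, read 192, 139, 291 and 214 in controls and 1130, 190.3, 231 and 625 in Cre-labelled fat at 22 °C. With housing at 30 °C Eno3 read 623, 436, 491 and 423 in controls and 232, 884, 897 and 293 in Cre-labelled fat. Pgam2, the muscle phosphoglycerate mutase, read 0, 4.06, 36.9 and 11.1 in controls and 264, 3.49, 13.9 and 146 in Cre-labelled fat at 22 °C. With housing at 30 °C Pgam2 read 134, 86.7, 82.97 and 62.3 in controls and 0.72, 211, 199.8 and 32.2 in Cre-labelled fat. Both ranged widely among Cre-labelled libraries, where Pgam2 ran from 3.49 to 264 at 22 °C. The muscle marker sums were 1903, 1639, 6666 and 2633 in controls and 46257, 1589, 2443 and 22775 in Cre-labelled fat at 22 °C. The 30 °C sums were 24347, 13939, 14444 and 14351 in controls and 953.5, 39384, 33117 and 5944 in Cre-labelled libraries. Within groups, the order of the 4 libraries was that of the muscle sum for Eno3 in both 22 °C groups, for Pgam2 in both Cre-labelled groups, and for Pfkm in controls at 22 °C and Cre-labelled libraries at 30 °C. Between 5 and 8 of the 30 markers were at 0 in some library of each group except the 30 °C controls: in Cre-labelled libraries at 30 °C these were Actn3, Myh1, Myh4, Tnni1, Myot, Pvalb, Xirp2 and Trdn.

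In controls Pgam2 was higher at 30 °C, at 3.68 ± 1.45 (SE), adjusted p = 0.0476, and Eno3 at 1.26 ± 0.50 (SE), adjusted p = 0.0495. Both calls ended in most alternatives, with an adjusted p from 0.0517 to 0.149 for Pgam2 and from 0.0527 to 0.118 for Eno3 when 1 library was left out, and with 5 added before the logarithm Pgam2 was at 2.82. The libraries whose removal ended both were control 1, 2 or 4 at 22 °C and any 30 °C control. The Pgam2 call also ended without Cre-labelled library 3 at 22 °C or 4 at 30 °C, and that of Eno3 without Cre-labelled library 4 at 22 °C. With the muscle marker score as a covariate the differences were 0.09 for Pgam2 (adjusted p = 0.888) and 0.09 for Eno3 (adjusted p = 0.803). Between genotypes Eno3 had -0.01 (adjusted p = 0.99) and 1.05 (adjusted p = 0.202), and Pgam2 -1.17 (adjusted p = 0.678) and 2.53 (adjusted p = 0.293), and from 22 to 30 °C in Cre-labelled libraries they had 0.20 (adjusted p = 0.8) and -0.02 (adjusted p = 0.992).

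Pfkm, the muscle-type phosphofructokinase subunit, which other tissues also use, read 1599, 1377, 1802 and 1708 in controls and 2337, 1614, 1458 and 2070 in Cre-labelled fat at 22 °C. With housing at 30 °C Pfkm read 1939, 1892, 1868 and 2006 in controls and 892, 1828, 1466 and 1146 in Cre-labelled fat. It varied far less than Eno3 and Pgam2, and the Cre-labelled libraries at 30 °C were below all controls at 30 °C. The difference of Pfkm was -0.58 ± 0.18 (SE), adjusted p = 0.0468 between genotypes at 30 °C, and -0.42 with the muscle score as a covariate (adjusted p = 0.0173). Without single libraries its adjusted p rose to between 0.054 and 0.164: control 3 or 4 or Cre-labelled 4 at 22 °C, any control at 30 °C, or Cre-labelled 1, 3 or 4 at 30 °C. At 22 °C the difference was 0.19 (adjusted p = 0.566), and from 22 to 30 °C it was 0.26 (adjusted p = 0.267) in controls and -0.51 (adjusted p = 0.0407) in Cre-labelled libraries. The latter call ended without Cre-labelled library 1 (0.128) or 4 (0.104) at 22 °C, 1 (0.158) or 4 (0.103) at 30 °C, or control library 1 at 30 °C (0.051).

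**Figure D5:**
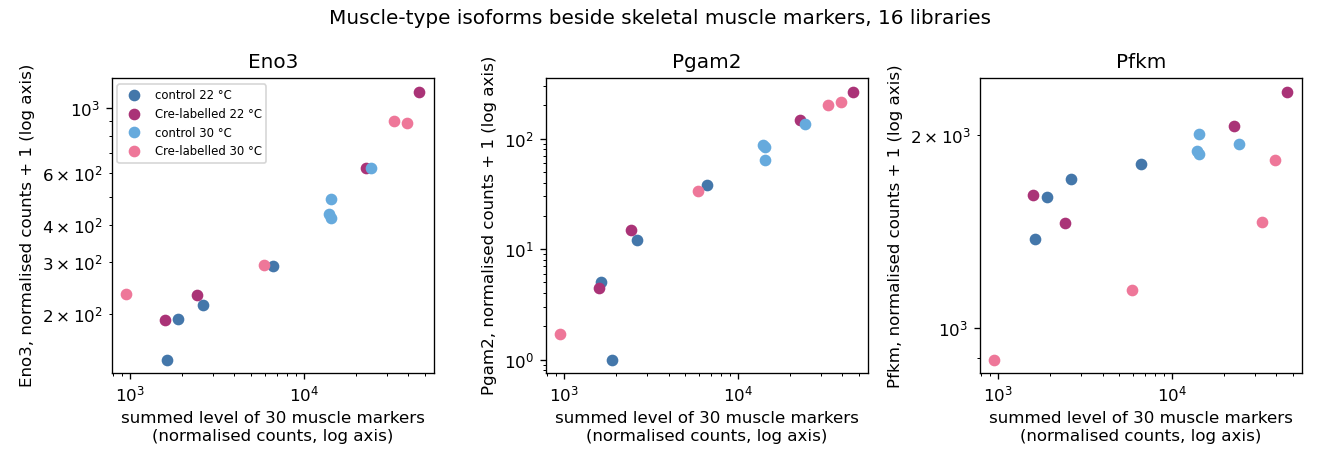
Normalised counts plus 1 of Eno3, Pgam2 and Pfkm (log axes) against the summed level of 30 skeletal muscle markers in each of the 16 libraries, coloured by group. Eno3 and Pgam2 are highest in the library with the highest muscle sum, 46257, and for Pfkm the Cre-labelled libraries at 30 °C lie below the other groups' libraries of like muscle sum.

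Other genes of the pathway came from a list of 53 genes that are not among the 38, of which 45 passed the filter. Between genotypes 2 of the 45 were higher and 5 lower at 30 °C, and 2 higher and 7 lower at 22 °C. Of all genes tested 5.65% were higher and 6.85% lower at 30 °C, and 5.51% and 4.69% at 22 °C. Ldhd, a lactate dehydrogenase for the D form, was lower, at -1.27 (adjusted p = 3.17e-06) and -0.82 (adjusted p = 3.04e-04), and Egln3, an oxygen-dependent prolyl hydroxylase, higher, at 1.49 (adjusted p = 2.92e-04) and 1.46 (adjusted p = 4.58e-04). Tbc1d4, which holds Slc2a4 inside the cell, was lower, at -0.72 (adjusted p = 0.00183) at 30 °C and Galm, a mutarotase of sugars, at -0.69 (adjusted p = 0.00257). At 22 °C Mlx, the partner of the glucose-sensing factor ChREBP, was lower, at -0.58 (adjusted p = 0.00711) and Rpe, an epimerase of the pentose phosphate pathway, at -0.59 (adjusted p = 0.0095). From 22 to 30 °C 8 of the 45 were higher and 15 lower in controls, and 4 and 15 in Cre-labelled libraries. Of all genes tested 22.9% were higher and 22.7% lower in controls, and 15.0% and 17.7% in Cre-labelled libraries. Fbp2, the muscle-type fructose bisphosphatase, was lower, at -2.66 (adjusted p = 7.99e-07) and -2.18 (adjusted p = 1.35e-05). The mitochondrial pyruvate carrier genes were also lower, Mpc1 at -1.71 (adjusted p = 1.87e-06) and -1.28 (adjusted p = 5.16e-05), and Mpc2 at -1.91 (adjusted p = 2.38e-06) and -1.49 (adjusted p = 4.67e-05). Mlx was lower, at -0.95 (adjusted p = 2.48e-05) in controls and Rpe at -0.82 (adjusted p = 2.53e-04) in Cre-labelled libraries. In the interaction 0 of 45 passed by limma, and 3 were higher and 2 lower at an unadjusted p under 0.05.

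BCL6 peaks in control fat at 30 °C, from 1 ChIP library without replicates, were compared with the starts of the 38 genes. The authors' list holds 3022 peaks with their own scores from 4.11 to 170 and a median of 5.18. A peak was counted only for the gene that the list assigns it to. Such a peak lay within 10 kb of the start of 5 of 38 genes (13.2%), against 7.75% of all kept genes. They were Pfkfb3 (chr2:11553634-11553814, intron, 205 bases after the start, score 4.65), Pgd (chr4:149166968-149167148, promoter, 353 bases before, score 4.65), Slc2a1 (chr4:119109250-119109430, intron, 595 bases after, score 4.11), Slc16a3 (chr11:120950723-120950903, intron, 1746 bases after, score 4.47) and Gpi1 (chr7:34234123-34234303, intergenic, 3877 bases before, score 5.9). With scores at or above the median 1 of 38 remained, Gpi1, against 3.73% of all kept genes. Within 50 kb at any score it was 7 of 38 (18.4%), against 11.9% of all kept genes. Peaks not assigned to them lay 20790, 21288, 31332 and 37211 bases from windows of Aldoc, Aldoa, Pfkl and Pgls, and are not in that count. The genes added were Hk2 (12527 bases after the start, score 4.83) and Slc16a1 (22020 and 31477 bases after, scores 5.54 and 6.97). None of the peaks overlapped a promoter window of these genes. Of the 6 genes lower between genotypes at both temperatures, Gpi1 had a peak within 10 kb, and the peak nearest to the Aldoc window shown above was 20790 bases away. Of these 5 genes Gpi1 was the one called between genotypes with all libraries fitted together.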

How the data were processed

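RNA of 16 brown fat libraries was read as stranded polyA libraries, per the labels' protocols. The deposited signal values are normalised counts: per the submitters' processing notes, the authors used kallisto, DESeq2 and mm10, with no version or annotation given in the sources used here. Raw reads could not be recovered, so depth is unknown and a change in total RNA would not be seen. The protocol in the labels gives housing at 22 °C, and the temperature of each library comes from its title. The deposited peak score, of the authors' BCL6 peak list (HOMER annotation per the file headers, Bowtie2 per the submitters' processing notes), has no stated scale. The other ChIP samples were not analysed here.

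Genes with a mean of at least 10 were kept (13176). Tests used log2(value + 1), which understates the change of low genes, with limma 3.58.1 in R 4.3.3: 1 mean per group over all 16 libraries, moderation with a trend (prior degrees of freedom 4.83, residual 12), Benjamini-Hochberg over all genes and a threshold of 0.05. The 5 comparisons were genotype at each temperature, temperature in each genotype and the interaction. The fit was tested on simulated data. The genes and lists were chosen with earlier results of these data known. All genes past the threshold are named, values in every library are given for the 12 called in most comparisons, the muscle isoforms and, after their values were seen, Ldha and Slc16a1. Up to 4 other pathway genes are named per comparison by adjusted p. Ucp1 and the split at a mean of 1000 were also chosen after the values were seen. Alternatives were 9 settings and leaving out each of the 16 libraries, and for peaks 3 other limits on distance or score.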

Additional observations from a re-analysis of the deposited data

Results flagged for a closer look

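In 9 of 152 groups of 4 libraries, 1 library lay far from the other 3 of its group, where chance gives about 1 in 20 groups. Gpd2 had 2 of them: control library 3 at 22 °C was at 16856 normalised counts, against 10922 to 11661 in the others, and control library 3 at 30 °C at 4973, against 6376 to 6610. Slc16a1 in Cre-labelled library 2 at 22 °C was at 4238, against 2405 to 2465. Pkm in control library 3 at 22 °C was at 29431, against 23622 to 24384. Pgam1 in control library 4 at 22 °C was at 11138, against 12240 to 12406. Pgm2 as deposited was at 2580 in control library 2 at 30 °C, against 1903 to 2010. Hk1 in Cre-labelled library 1 at 30 °C was at 617.8, against 448.0 to 453.3. Pfkfb2 in control library 1 at 22 °C was at 200.9, against 374.1 to 407.0. Slc2a3 in Cre-labelled library 3 at 22 °C was at 88.4, against 63.1 to 66.6.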

How the results depend on the processing

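Counts of genes past the threshold are given as higher or lower. Counts over all genes moved with these settings as well and are given for some of them. Among all genes 902 were lower between genotypes at 30 °C, and 598 without Cre-labelled library 1 at 30 °C. Among the 38 genes the number lower between genotypes at 30 °C was 11. It ran from 6 (without Cre-labelled library 1 at 30 °C) to 13 when 1 library was left out, with 7 without control library 2 or 4 or Cre-labelled library 4 at 30 °C. Aldoc, Pfkl, Ldhb, Gpd2, Slc16a1 and Pgk1 kept that call in every alternative in which they were tested; Aldoc was not tested with a mean of at least 50. The number higher at 30 °C was 0 and ran from 0 to 1 when 1 library was left out, 1 with a pseudocount of 5, 1 with quantile normalisation, 4 with the groups compared alone and 3 without the 2 libraries with the fewest genes above 0. Among all genes 745 were higher there, 1123 with the groups compared alone and 1329 without those 2 libraries. At 22 °C the number lower was 8, ran from 7 to 12 when 1 library was left out, and was 3 with the groups compared alone and 13 without those 2 libraries. Among all genes 618 were lower there, 249 with the groups compared alone and 1197 without those 2 libraries. The number of the 38 that were higher at 22 °C ran from 0 to 1. In controls between temperatures, the number higher was 7, ran from 4 to 9 when 1 library was left out, and was 4 with no filter and 4 with the muscle score as covariate. Among all genes 3012 of 13176 were higher there, 3257 of 18645 with no filter and 2277 of 13176 with that covariate. The number of the 38 that were lower was 21 in each of those settings, and 13 with quantile normalisation, where Ldhb reversed to 0.091. In Cre-labelled libraries between temperatures the number higher was 8, ran from 6 to 8 and was 4 with a mean of at least 50, a filter that 4 of the 38 genes do not pass, and the number lower ran from 21 to 25. The interaction stayed at 0 in both directions. The number of genes with an assigned peak was 5, and it was 1 with scores at or above the median and 7 within 50 kb. The cause was not tested. Raw depth is unknown, so precision at low values such as Aldoc cannot be given.

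Replicate numbers are shared between groups but did not pair the libraries: libraries with the same number correlated from -0.48 to 0.171 in their deviations from group means. With the replicate block 9 genes were lower at 30 °C and 8 at 22 °C between genotypes, and 4 were higher in controls between temperatures. Among all genes these counts were 804, 526 and 2854 with the block.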
